A study of Sus scrofa with 5 samples.

Results

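Bulk RNA sequencing was available for 5 pig kidney libraries of a xenotransplantation study, and the pair described here consists of its 2 untransplanted controls. Both carry the same labels (pig kidney, 0 h, control treatment) and differ only in the replicate number of their titles. The other 3 libraries are 1 xenograft biopsy each at 12, 24 and 48 h after transplantation into a human. The labels give no genotype, strain or age, and nothing in them says whether the controls came from separate animals, from both kidneys of 1 animal or from the same kidney. Per the extraction protocol, core biopsies were homogenised and total RNA was depleted of ribosomal RNA, whereas the cell type label names dissociated cells.

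The pair was compared as replicate 1 over replicate 2, with 1 library on each side. No spread can be estimated from such a pair, so the differences have no replicate check and are given as folds only. Levels are CPM (counts scaled to a common library size) after trimmed mean of M values (TMM) scaling, which sets the bulk of genes equal between the libraries. Of 15219 pig gene symbols, 11287 had 50 or more raw counts in at least 1 of the controls and were kept. Just inside this limit, 21 genes had 50 as the higher of their 2 counts, and just outside it 26 genes had 49. A further 1487 symbols had no count in either control.

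Pig-table totals were 65918276 counts in replicate 1 and 71107513 in replicate 2, beside 56129361 to 66168403 in the biopsies. A chi-square comparison of the 2 libraries' counts gave 211.9 per degree of freedom over 12694 genes, where sampling noise alone gives about 1, and 33.18 without the 13 mitochondrially encoded genes. All intervals below are 95% exact binomial (Clopper-Pearson) intervals and cover counting error only. They may be too narrow even for that, because the reads carry no molecular identifiers and may repeat a molecule.

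The kidney filters blood in glomeruli, which hold podocytes, mesangial cells and a fenestrated endothelium. The proximal tubule then reclaims most of the filtered solutes by transport that depends on mitochondrial respiration, and the thick ascending limb, distal tubule and collecting duct adjust salt, acid and water. Fibroblasts, smooth muscle, vessels and macrophages fill the space between tubules. Immediate early genes such as FOS and EGR1 encode transcription factors that are switched on quickly and briefly by many stimuli.

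Both libraries carried the markers of kidney. LRP2, encoding the endocytic receptor megalin of the proximal tubule, was at 2735 CPM in replicate 1 and 2538 CPM in replicate 2. UMOD, the uromodulin gene of the thick ascending limb, was at 2173 and 2071 CPM, and CALB1, the calbindin gene of the distal tubule, at 1506 and 1272 CPM. AQP2, the water channel of collecting duct principal cells, was at 67.3 and 67.8 CPM, and the podocyte gene NPHS1 at 18.3 and 14.9 CPM. Every one of these segment markers was present in both libraries, with AQP2 nearly equal and the others higher in replicate 1 by differing amounts.

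Most defining markers of other tissues were at or near 0, though single members of their lists were not. The urothelial gene UPK2, the keratin gene KRT5 and the adrenal genes CYP17A1 and CYP11A1 had no count in either library, which allows up to 3 counts in each. HBB, a haemoglobin gene of red cells, was at 0.16 CPM in replicate 1 and 0.20 CPM in replicate 2, and the adipocyte gene ADIPOQ at 0.027 and 0.016 CPM. Of the red cell list 1 of 6 measured genes passed the count limit, as did 1 of 6 for neutrophils, 1 of 8 for adrenal, 1 of 6 for urothelium and 1 of 4 for skeletal muscle. The adrenal gene that passed was STAR, a cholesterol carrier of steroid-making cells, at 17.4 CPM in replicate 1 and 18.7 CPM in replicate 2. Of 7 adipocyte genes 4 passed, with summed CPM of 71.4 in replicate 1 and 70.9 in replicate 2. The defining genes of red cells and neutrophils were thus near the floor in both libraries, apart from SLC25A37 and LTF.

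Most genes were close to equal in the pair. At least 2-fold higher in replicate 1 were 31 of the 11287 genes (0.275%), and at least 2-fold lower were 4 (0.0354%), so that 0.31% passed the limit in either direction. The count limit uses the same counts as the fold, so some of these genes passed it only through the library where they were high. Requiring 50 counts in both libraries lowered both numbers, with the values given below under the dependence on processing. At 1.5-fold the counts were 291 higher (2.58%) and 68 lower (0.602%), together 3.18% of genes. The median size of the fold was 1.101, and 96.8% of genes lay within 1.5-fold of equal. Genes above equal in replicate 1 numbered 5678 (50.3%) and genes below it 5609 (49.7%). These shares, and those at 1.5-fold and 2-fold, are the background for every count of list members below. Across genes, log CPM of the 2 libraries had a Pearson correlation of 0.9943, which describes these libraries and is no test.

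The folds spread more widely at low counts, and at high counts their spread was several times the counting error. Among the 1393 genes with at least 50 and fewer than 200 as the higher count, the standard deviation of the log2 fold was 0.38, and the median counting error was 0.21. Among the 6006 genes with at least 1000 and fewer than 10000 counts these were 0.20 and 0.041, and among the 992 genes with 10000 or more they were 0.20 and 0.016. Of the 31 genes past 2-fold higher, 27 had fewer than 1000 counts in both libraries. Past 1.5-fold in either direction were 12.6% of genes with at least 50 and fewer than 200 counts. With at least 1000 and fewer than 10000 counts it was 0.982%. The background for list members at low counts is therefore above that of all genes.

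**Figure D1:**
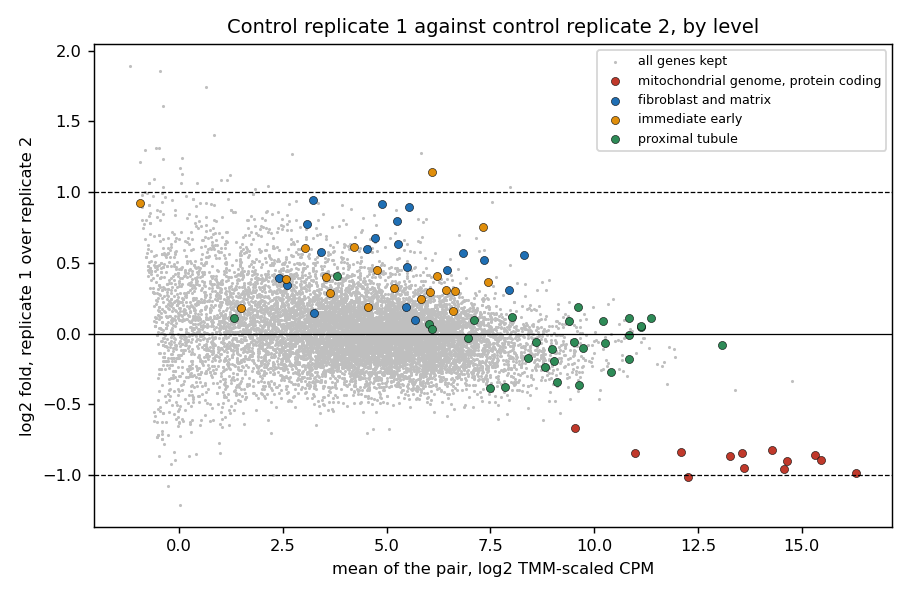
Log2 fold of each of the 11287 genes (replicate 1 over replicate 2, vertical axis) against the pair's mean level in log2 TMM-scaled CPM (horizontal axis), with 4 gene lists coloured and dashed lines at 2-fold. The 13 mitochondrially encoded genes lie together at the lower right, while the fibroblast and immediate early genes lie above equal and the proximal tubule genes around it.

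The largest difference in the composition of the libraries was in mitochondrial transcripts. The 13 protein-coding genes of the mitochondrial genome, which encode core subunits of the respiratory chain and of ATP synthase, took 21.867% of counts in replicate 1 (95% interval 21.857% to 21.877%) and 33.375% in replicate 2 (33.364% to 33.386%). All 13 were lower in replicate 1 by 1.59-fold (ND6) to 2.02-fold (ATP8), with a median log2 fold of -0.87. ATP8 was the 1 gene of the 13 past 2-fold, against 0.0354% of all genes, and all 13 were past 1.5-fold lower, against 0.602%. In the biopsies the share was 12.047% at 12 h, 14.459% at 24 h and 11.81% at 48 h, below both controls.

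COX1, a catalytic subunit of cytochrome c oxidase (complex IV), had 54580 CPM in replicate 1 and 107900 CPM in replicate 2, a level 1.98-fold lower in replicate 1 (interval 1.974 to 1.978). COX2, another subunit of complex IV, had 28960 and 52500 CPM (1.81-fold lower), and COX3, a further one, 31730 and 58870 CPM (1.86-fold lower). CYTB, the cytochrome b gene of complex III, had 17920 and 33430 CPM (1.87-fold lower). All 4 genes, of complexes IV and III, were lower in replicate 1 by 1.81-fold to 1.98-fold. The ATP synthase gene ATP6 had 16640 and 32310 CPM (1.94-fold lower). Of the complex I genes, ND4 had 8477 and 16380 CPM (1.93-fold lower), and ND1 7014 and 12800 CPM (1.83-fold lower).

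Within the mitochondrial genome the order of levels was the same in both controls, although the shares of single genes differed somewhat. Per kilobase of gene, on the scale of TMM-scaled CPM, COX2 was highest at 42100 in replicate 1 and 76300 in replicate 2, followed by COX3 at 40500 and 75100 and COX1 at 35300 and 69800. COX1 held 27.7% of mitochondrial counts in replicate 1 and 29.1% in replicate 2, and ND5 7.31% and 6.88%. The 3 complex IV genes made up 58.6% of mitochondrial counts in replicate 1 and 59.1% in replicate 2. ND6, the only one of the 13 encoded on the light strand, was lowest in both at 1080 and 1720 per kilobase. ATP8 overlaps ATP6, ND4L overlaps ND4, and ND6 overlaps ND5 on the opposite strand. The strand setting of the counting is not given in the sources used here, so the values of these neighbours are uncertain.

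**Figure D2:**
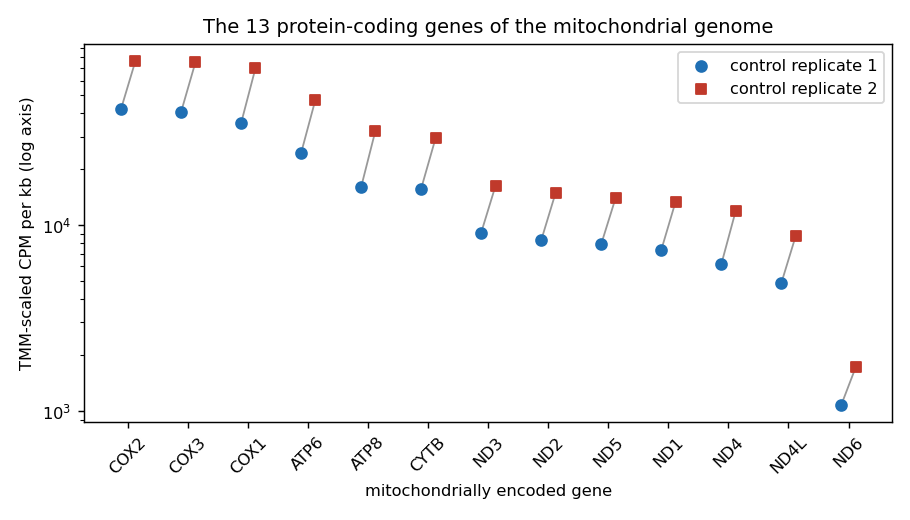
TMM-scaled CPM per kilobase (log axis) of the 13 mitochondrially encoded protein-coding genes, ordered by their level in replicate 1, with replicate 1 as circles left of replicate 2 as squares. Every gene is lower in replicate 1, and the order from COX2 to ND6 is the same in both.

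Nuclear genes for the respiratory chain were also mostly below equal, but by much less. In the complex I list 29 of 31 genes were lower in replicate 1, against 49.7% of all genes, with a median log2 fold of -0.24 against 0.00 for all genes. Complexes II to IV had 18 of 19 below (median -0.25) and nuclear ATP synthase subunits 12 of 12 (median -0.26). Mitochondrial ribosomal proteins, which translate the mitochondrial messages, had 36 of 37 below (median -0.21). None of these genes passed 1.5-fold. Scaled by library totals alone, which moves the median of all genes to 0.31, these list medians lie above 0 but still below that of all genes. In summed CPM the complex I list stood at 3847 in replicate 1 and 4467 in replicate 2, and the nuclear ATP synthase list at 4977 and 5658.

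Other mitochondrial functions lay nearer to equal. With CPM taken over nuclear genes only, the median of all genes is 0.077 in place of 0.00 and every list moves up with it, so small negative list medians, here and below, can turn positive. Genes of fatty acid oxidation, the main fuel of the proximal tubule, had 14 of 21 below with a median of -0.06, and citrate cycle genes 12 of 16 with a median of -0.05. The 20 genes of mitochondrial DNA maintenance and expression were split 10 above and 10 below, with a median of 0.00. PPARA, encoding a transcription factor that controls fatty acid oxidation, was the highest of its list at a log2 fold of 0.58.

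The respiratory chain lists resembled the cytosolic ribosomal proteins, which were counted as a check of library composition. Of these, 45 of 46 were lower in replicate 1 with a median of -0.27, and their summed CPM were 20420 in replicate 1 and 24420 in replicate 2. The single member past 1.5-fold was RPL22, at a log2 fold of -0.61. The complex I and both ribosomal protein lists hold short genes, and the fold of the pair moved with gene length. Spans were found for 10 of 19 genes of complexes II to IV and for 0 of 12 nuclear ATP synthase genes, so no length-based value is given for these. In the shortest decile of nuclear genes by RefSeq gene span (75 to 5708 bases on Sscrofa11.1), the median log2 fold was -0.15. It increased decile by decile to 0.15 in the longest (170699 to 2622506 bases).

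A span was found for 94.6% of genes kept. Across the 10664 nuclear genes with a span, Spearman's rho of span and fold was 0.403, as a description across genes that share the same 2 libraries. The 291 genes past 1.5-fold higher had a median span of 93496 bases and the 55 nuclear genes past 1.5-fold lower one of 11991, beside 31731 for all. Relative to genes in the same decile of span, the medians became -0.15 for complex I, -0.13 for mitochondrial ribosomal proteins and -0.12 for cytosolic ribosomal proteins. The part of span in these medians was not tested further. Folds also moved with level, with a Spearman's rho of -0.228.

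**Figure D3:**
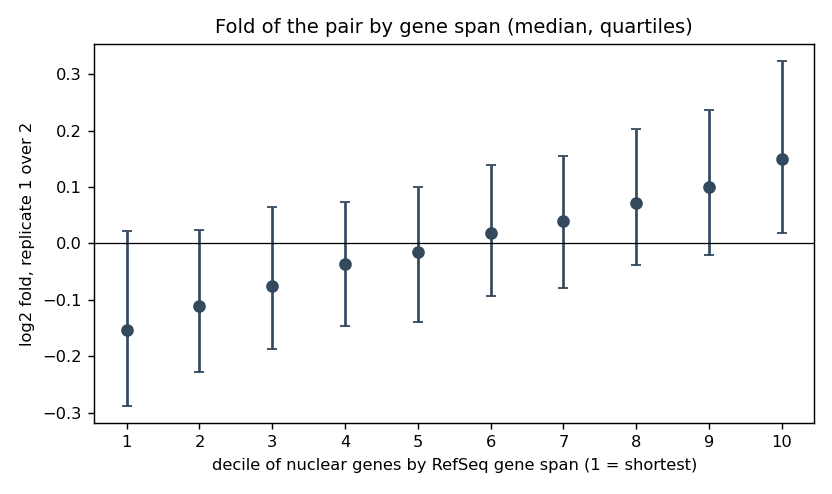
Median log2 fold of the pair (points, with bars from the lower to the upper quartile) in each decile of nuclear genes by RefSeq gene span, from the shortest to the longest. The median runs from -0.15 in the shortest decile to 0.15 in the longest.

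The tubular epithelium was nearly equal between the controls. None of 30 proximal tubule genes passed 1.5-fold, with 13 above and 17 below equal and a median of -0.05, and their summed CPM were 32150 in replicate 1 and 33190 in replicate 2. PCK1, a key enzyme of gluconeogenesis, had 2266 and 2188 CPM, and SLC5A12, a lactate transporter, 2263 and 2194 CPM. The list ran from AMN, the partner of cubilin in protein uptake (154.6 and 202.2 CPM, log2 -0.39), to SLC5A1, a glucose transporter of the late proximal tubule (15.9 and 12.0 CPM, log2 0.40). The phosphate transporter gene SLC34A1 had 1729 and 1956 CPM, and the glucose transporter gene SLC5A2 of the early proximal tubule 487.5 and 558.2 CPM.

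The other tubular segments held 2 genes past 1.5-fold in opposite directions, both at low levels. TRPV5, the calcium channel of the distal and connecting tubule, had 1.79 CPM in replicate 1 and 2.80 CPM in replicate 2 (1.56-fold lower). FXYD4, a regulator of the sodium pump in the collecting duct, had 3.15 and 1.74 CPM (1.82-fold higher). Thick ascending limb genes had 7 of 11 above equal and a median of 0.10, led by CASR, the calcium-sensing receptor (8.61 and 5.85 CPM, log2 0.56). SLC12A1, the target of loop diuretics, had 360.2 and 282.3 CPM (log2 0.35). Distal tubule, principal cell and intercalated cell lists had medians of -0.03, -0.02 and -0.07. The proton pump gene ATP6V1B1 of intercalated cells had 591.2 and 523.0 CPM.

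Glomerular genes were mostly higher in replicate 1. Of 11 podocyte genes 9 were above equal, against 50.3% of all genes, with a median of 0.30 and summed CPM of 480.3 in replicate 1 and 406.6 in replicate 2. Relative to the same span deciles the podocyte median was 0.22. NPHS1, encoding the slit diaphragm protein nephrin, had 18.3 and 14.9 CPM (1.23-fold higher). PLA2R1, the antigen of membranous nephropathy, had 60.3 and 40.5 CPM (1.49-fold higher), and KIRREL1, a partner of nephrin, 8.79 and 5.81 CPM (1.51-fold higher). The exceptions were NES (58.4 and 69.5 CPM) and SYNPO (8.52 and 9.58 CPM). Of 5 measured genes of the parietal epithelium 4 passed the count limit, and these were above equal with a median of 0.27. In bulk tissue, more cells of a type and more RNA per cell cannot be told apart, here or in the lists that follow.

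All 9 genes of the mesangium and juxtaglomerular list were above equal, with a median of 0.38, and 3 of them passed 1.5-fold, against 2.58% of all genes. Relative to the same span deciles their median was 0.32. ITGA8, the integrin chain of mesangial cells, had 13.2 CPM in replicate 1 and 6.95 CPM in replicate 2 (1.90-fold higher, interval 1.70 to 2.13). PDGFRB, encoding the platelet-derived growth factor receptor of mesangial cells, pericytes and fibroblasts, had 47.4 and 30.5 CPM (1.55-fold higher). PDGFRB is also on the smooth muscle and fibroblast lists, so these lists are not separate measurements.

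Endothelial genes were above equal in 11 of 14 cases, against 50.3% of all genes, with a median of 0.35, and none passed 1.5-fold. Relative to the same span deciles their median was 0.28. PECAM1, an adhesion molecule of all endothelium, had 94.3 CPM in replicate 1 and 73.1 CPM in replicate 2 (1.29-fold higher). KDR, the main receptor for vascular endothelial growth factor, had 89.6 and 68.5 CPM, CDH5, the cadherin of endothelial junctions, 29.2 and 21.8 CPM, and VWF, the von Willebrand factor gene, 18.2 and 12.5 CPM (1.45-fold higher). Going the other way were ERG (8.40 and 10.8 CPM), EGFL7 (24.7 and 30.9 CPM) and ROBO4 (7.003 and 8.46 CPM). The endothelial list therefore did not shift as 1 block.

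Vessel types differed among themselves in their medians. Arterial endothelial genes had 7 of 8 above equal with a median of 0.30, led by the connexin gene GJA5 (8.86 and 6.08 CPM). Peritubular and vasa recta genes had a median of 0.05 (0.12 relative to the same span deciles), with PLVAP, the diaphragm protein of fenestrated capillaries, at 113.4 and 102.9 CPM. Among 3 glomerular endothelial genes PLAT, encoding tissue plasminogen activator, stood highest at 14.3 and 7.96 CPM (1.80-fold higher). The lymphatic list held genes in both directions past 1.5-fold, with PROX1, the lymphatic transcription factor, at 1.97 and 1.16 CPM (1.70-fold higher) and LYVE1, a hyaluronan receptor, at 1.72 and 2.59 CPM (1.51-fold lower). Smooth muscle and pericyte genes had 10 of 12 above equal with a median of 0.22, and ACTA2, smooth muscle actin, had 121.1 and 94.7 CPM.

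Of 12 genes of endothelial activation 9 were above equal, with a median of 0.35, and 2 passed 1.5-fold higher, against 50.3% and 2.58% of all genes. ANGPT2, an angiopoietin released by activated endothelium, had 1.69 CPM in replicate 1 and 0.95 CPM in replicate 2 (1.78-fold higher). The adhesion molecule genes VCAM1 and ICAM1 were 1.27-fold higher in replicate 1, at 57.4 and 45.2 CPM and at 16.0 and 12.6 CPM.

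Among lists with 9 or more genes, the highest median was that of fibroblasts and matrix. All 20 genes were higher in replicate 1, with a median log2 fold of 0.56, and 8 passed 1.5-fold, against 2.58% of all genes. Relative to the same span deciles their median was 0.54. Summed CPM were 1542 in replicate 1 and 1092 in replicate 2. PDGFRA, the growth factor receptor that marks fibroblasts, had 38.6 and 20.5 CPM (1.88-fold higher, interval 1.76 to 2.01). FN1, encoding fibronectin, had 60.2 and 32.4 CPM (1.86-fold higher), and MFAP5, a microfibril protein, 12.3 and 6.39 CPM (1.92-fold higher). LUM, a small proteoglycan of collagen fibrils (53.4 and 49.96 CPM), THY1 (10.1 and 9.08 CPM) and SFRP1 (47.4 and 41.6 CPM) differed least, and DCN, encoding decorin, had 271.5 and 218.8 CPM.

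Among all genes with 1000 or more counts, 4 passed 2-fold higher. FBN1, encoding fibrillin-1 of elastic microfibrils, had 5902 counts in replicate 1 and 2127 in replicate 2, or 80.6 and 33.2 CPM, and was 2.42-fold higher (interval 2.31 to 2.55). It had the largest fold of these 6998 genes. Next were FOSB, described below, and A2M, encoding the protease inhibitor alpha-2-macroglobulin, at 336.7 and 164.4 CPM (2.05-fold higher, interval 2.00 to 2.10). LAMC3, a laminin chain, had 14.8 and 7.38 CPM (2.00-fold higher, interval 1.79 to 2.23). Also just under the limit were C7, a complement component, at 244.0 and 127.8 CPM (1.91-fold higher), COLEC12, a scavenger receptor, at 19.8 and 10.5 CPM (1.88-fold higher), COL6A5 at 22.7 and 12.3 CPM (1.84-fold higher) and CP, encoding ceruloplasmin, at 48.3 and 26.4 CPM (1.83-fold higher).

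The collagen family as a whole was grouped by symbol after its values were seen. It had 27 of 28 chains above equal, against 50.3% of all genes, with a median of 0.52, or 0.47 relative to the same span deciles. Interstitial COL3A1 had 375.2 CPM in replicate 1 and 255.2 CPM in replicate 2, and COL1A1 136.8 and 92.2 CPM. COL15A1, a collagen of vascular and muscle basement membranes, had 78.2 and 44.6 CPM (log2 0.81), and COL14A1, a fibril-associated chain, 68.2 and 38.9 CPM (log2 0.81). Of the chains of the glomerular basement membrane, COL4A3 had 116.7 and 97.6 CPM (log2 0.26), COL4A4 52.2 and 47.2 CPM (log2 0.15) and COL4A5 51.4 and 38.7 CPM (log2 0.41). COL8A2 was the single collagen past 2-fold (3.02 and 1.42 CPM, log2 1.09), and COL26A1 the single one below equal (3.51 and 4.81 CPM). Laminin chains had 6 of 7 above equal (median 0.46) and integrin chains 14 of 18 (median 0.15). Relative to the same span deciles these medians were 0.36 and 0.073.

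**Figure D4:**
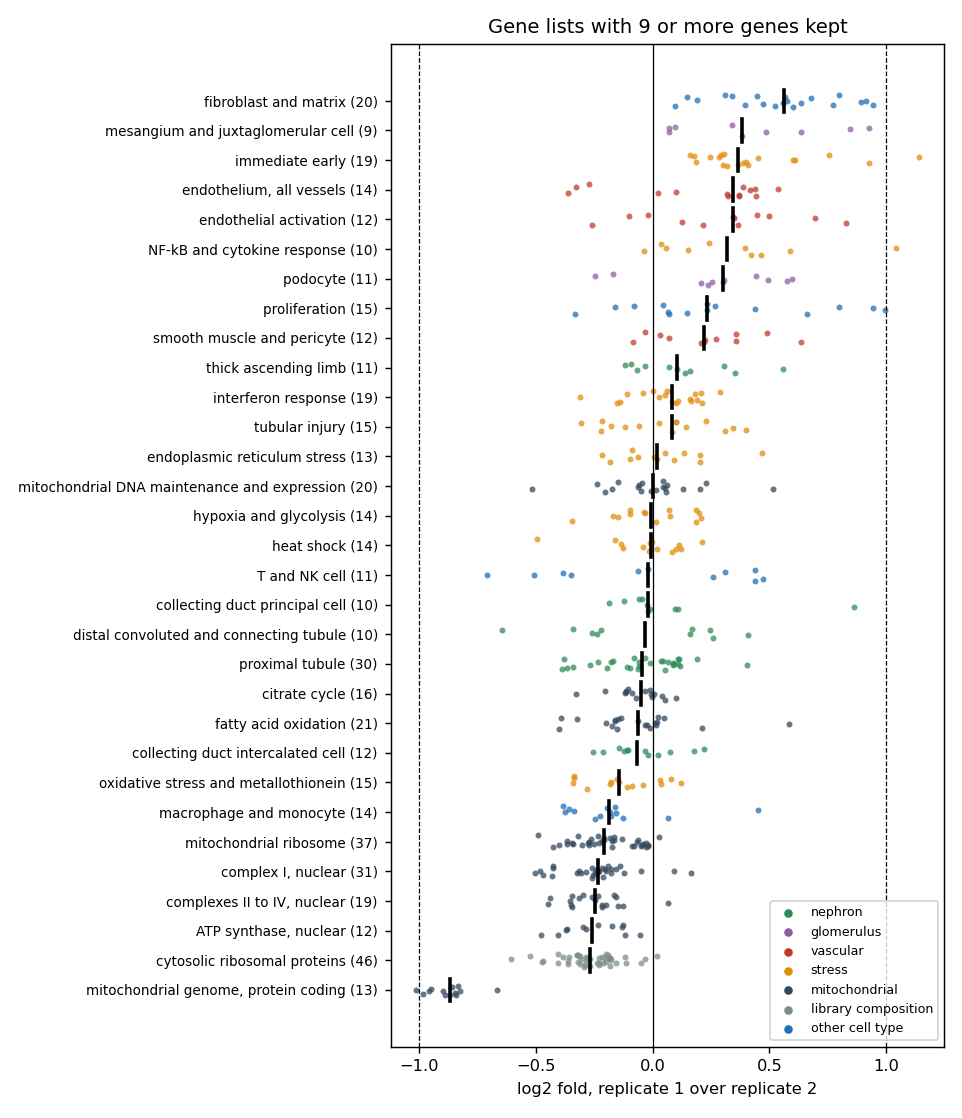
Log2 fold (replicate 1 over replicate 2) of each gene in the lists with 9 or more genes kept, 1 row per list, with the number kept in brackets and the list median as a black bar. Dashed lines mark 2-fold, colours mark the theme of the list, and the fibroblast and matrix list stands at the top and the mitochondrial genome at the bottom.

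Immediate early genes were higher in replicate 1 in 19 of 19 cases, with a median of 0.37. Of them 5 passed 1.5-fold higher. Among all genes 50.3% were above equal and 2.58% passed 1.5-fold higher. FOSB, a partner of JUN in the AP-1 transcription factor, had 93.3 CPM in replicate 1 and 42.3 CPM in replicate 2 and was past 2-fold (2.21-fold higher, interval 2.11 to 2.31), against 0.275% of all genes. FOS itself had 201.3 and 119.2 CPM (1.69-fold higher, interval 1.64 to 1.74). EGR2 (9.84 and 6.49 CPM), EGR3 (0.68 and 0.36 CPM) and KLF4 (22.3 and 14.6 CPM) were the other 3 members past 1.5-fold. EGR1 had 194.6 and 151.0 CPM (1.29-fold higher), ZFP36, which destabilises cytokine messages, 111.1 and 90.2 CPM, and IER3 103.0 and 92.2 CPM (1.12-fold higher). The members therefore ranged widely in the size of the same-signed difference. This list too holds short genes, and relative to its deciles of span its median was 0.47.

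Genes of the NF-kB and cytokine response were above equal in 9 of 10 cases, against 50.3% of all genes, with a median of 0.32. CCL4, a chemokine for T cells and monocytes, had 5.95 CPM in replicate 1 and 2.89 CPM in replicate 2 (2.06-fold higher, interval 1.73 to 2.46), and its close relative CCL3L1, with 134 and 56 counts, had a log2 fold of 1.06. How the counting divided reads between such related chemokine genes is not given in the sources used here. LIF, a cytokine of the interleukin-6 family, had 0.75 and 0.50 CPM, CCL2, a monocyte chemokine, 24.95 and 18.99 CPM, and NFKBIA, the feedback inhibitor of NF-kB, 30.8 and 29.6 CPM.

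The slower stress programmes lay close to equal, and none of their genes passed 1.5-fold. Heat shock genes had a median of -0.01, with HSPA8 at 599.4 CPM in replicate 1 and 517.4 CPM in replicate 2 and the small heat shock gene HSPB1 at 77.8 and 109.7 CPM (1.41-fold lower). Hypoxia and glycolysis genes had a median of -0.01, with VEGFA at 96.0 and 91.3 CPM. Endoplasmic reticulum stress genes had a median of 0.02 and p53 targets one of -0.04, with the chaperone gene HSPA5 at 563.0 and 529.2 CPM. Interferon response genes had 14 of 19 above equal and a median of 0.08, or 0.18 relative to the same span deciles, with B2M, the light chain of MHC class I, at 579.7 and 719.9 CPM.

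Tubular injury genes had 9 of 15 above equal and a median of 0.08, or 0.14 relative to the same span deciles. SPP1, the osteopontin gene, had 61.6 CPM in replicate 1 and 60.4 CPM in replicate 2, and the injury keratin gene KRT20 had no count in either. Antioxidant genes leaned the other way, with 11 of 15 below equal and a median of -0.14, or -0.069 relative to genes of the same span decile. GPX3, the plasma glutathione peroxidase made by the proximal tubule, had the most counts of any nuclear gene, at 24710 and 31200 CPM (1.26-fold lower). The catalase gene CAT had 3715 and 4012 CPM.

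Leukocyte lists did not follow the stromal ones. Of 14 macrophage and monocyte genes 12 were lower in replicate 1, against 49.7% of all genes, and none passed 1.5-fold. Their median was -0.19 (-0.12 relative to the same span deciles). The complement genes C1QA (20.2 and 26.4 CPM) and C1QB (24.5 and 31.8 CPM) stood lowest in that list, while CD86, a costimulator, was highest at 6.96 and 5.10 CPM. T and NK cell genes were split 5 above and 6 below equal. CD5 was 1.64-fold lower at 0.57 and 0.94 CPM, and CD3E had 1.67 and 2.13 CPM. On the B cell list CD79A had 290.5 and 328.0 CPM, whereas CD79B and PAX5 were under 0.1 CPM in both libraries, so CD79A is not read here as a level of B cells.

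Proliferation genes were above equal in 12 of 15 cases, against 50.3% of all genes, with a median of 0.23, and 4 were past 1.5-fold higher, against 2.58%. The mitotic genes CDK1 (0.997 and 0.50 CPM, 1.99-fold higher, interval 1.30 to 3.12), KIF11 (1.17 and 0.61 CPM) and TOP2A (2.36 and 1.36 CPM) were past 1.5-fold, as was the thymidylate synthase gene TYMS (1.83 and 1.16 CPM). All 4 had few counts. Among all genes with at least 50 and fewer than 200 as the higher count, 12.6% were past 1.5-fold in either direction. Among the 3 genes below equal were PCNA, the clamp of DNA replication and repair, at 147.7 and 165.1 CPM, and BIRC5. With 373 and 410 counts, BIRC5 was the lowest of the list at a log2 fold of -0.33. Summed CPM of the list were 201.5 in replicate 1 and 214.1 in replicate 2. CMAH, which makes a sialic acid that acts as an antigen in pig-to-human transplantation, had 1.67 CPM in replicate 1 and 0.86 CPM in replicate 2 (1.94-fold higher, interval 1.40 to 2.72).

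The largest folds belonged to genes with few counts, and their intervals were wide. GALNT14, a mucin-type glycosyltransferase, had 51 counts in replicate 1 and 12 in replicate 2 (3.71-fold higher, interval 1.95 to 7.65). ADCYAP1R1, a neuropeptide receptor, had 83 and 20 counts (3.63-fold higher, interval 2.20 to 6.24). GC, encoding the vitamin D binding protein of plasma, had 176 and 46 counts (3.34-fold higher, interval 2.40 to 4.73), LRRN3 84 and 24 counts (3.06-fold higher), and ANGPT4, an angiopoietin, 191 and 63 counts (2.65-fold higher). NTRK2, a neurotrophin receptor, was better covered, with 676 and 245 counts (2.41-fold higher, interval 2.08 to 2.80). The neuronal adhesion and synapse genes CNTN4, PCDH19, SYN3, CADM2 and LRRTM4 were also past 2-fold, each with 103 or fewer counts in replicate 1, and are named after their values were seen. Each had 43 or fewer counts in replicate 2, so all passed the count limit only through the library where they were high. Their spans ran from 121795 to 1071168 bases, beside a median of 31731 for all genes, and the fold of the pair moved with span.

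The 4 genes past 2-fold lower shared no list. Besides ATP8 they were DEPDC7 with 45 counts in replicate 1 and 91 in replicate 2 (2.32-fold lower, interval 1.60 to 3.39), the homeobox gene HOXA2 with 39 and 72 counts (2.11-fold lower, interval 1.41 to 3.21) and the microRNA hairpin ssc-mir-10390 with 233 and 408 counts (2.01-fold lower, interval 1.70 to 2.37). The other 21 kept HOX genes lay within 1.5-fold of equal. By chromosome, median log2 folds ranged from -0.05 on chromosome 2 to 0.06 on chromosome 8.

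The same libraries were also counted on the human genome. The human table held 15056649 counts in replicate 1 and 13385543 in replicate 2, or 22.84 and 18.82 per 100 pig-table counts, although the controls had not been in a human host. Of 8661 symbols with 50 or more counts in both tables, 76.2% had the same sign of fold, and the folds had a Pearson correlation of 0.691 across genes, as another counting of the same RNA and not independent support. FBN1 had 4298 and 1764 human-table counts (log2 1.06) and FOSB 2024 and 818 (log2 1.08). Of the genes past 2-fold in the pig table, 13 had enough human-table counts, 13 of these had the same sign and 6 were past 2-fold again. The fibroblast and matrix median was 0.61 in that table with 18 of 18 above equal, and the immediate early median was 0.32 with 17 of 18.

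The span trend appeared there as well, with medians from -0.19 in the shortest decile to 0.19 in the longest. Some genes past 2-fold in the pig table were much closer to equal there. DEPDC7 had 336 and 316 human-table counts and a log2 fold of -0.14, against -1.21 in the pig table. CADM2 had 104 and 74 counts (log2 0.27, against 1.09) and NHSL2 133 and 99 counts (log2 0.20, against 1.12). PCDH19, with 205 and 114 human-table counts, had a log2 fold of 0.62, against 1.07 in the pig table. The arterial endothelial median was -0.09 over 3 genes in the human table, against 0.23 for those genes in the pig table.

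The controls were set beside the biopsies on 1 common TMM scale, as values only. FBN1 had 98.8 CPM in replicate 1 and 40.6 CPM in replicate 2, and 84.5, 88.1 and 111.6 CPM at 12, 24 and 48 h. The biopsies thus stood near replicate 1, and above replicate 2. A2M had 412.8 and 201.0 CPM in the controls and 560.7, 502.4 and 861.9 CPM in the biopsies, above both. FOS had 246.8 and 145.8 CPM in the controls and 14.6, 11.2 and 7.61 CPM in the biopsies, and FOSB 114.4 and 51.7 against 10.6, 4.44 and 2.34 CPM. For these immediate early genes the controls differed far less from each other than from every biopsy.

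ITGA8 had 16.2 and 8.50 CPM in the controls and 4.65, 11.02 and 21.95 CPM in the biopsies, so the pair lay inside the range of the graft. COX1 had 66930 CPM in replicate 1 and 131800 CPM in replicate 2, and 29160, 37860 and 28010 CPM in the biopsies, and replicate 1 was the control nearer to them. LRP2 had 3354 and 3102 CPM in the controls and 471.1, 1057 and 873.1 CPM in the biopsies. TOP2A had 2.90 and 1.66 CPM in the controls and 2.20, 7.13 and 71.4 CPM in the biopsies, so that the 12 h biopsy lay between the controls and the later biopsies above them.

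**Figure D5:**
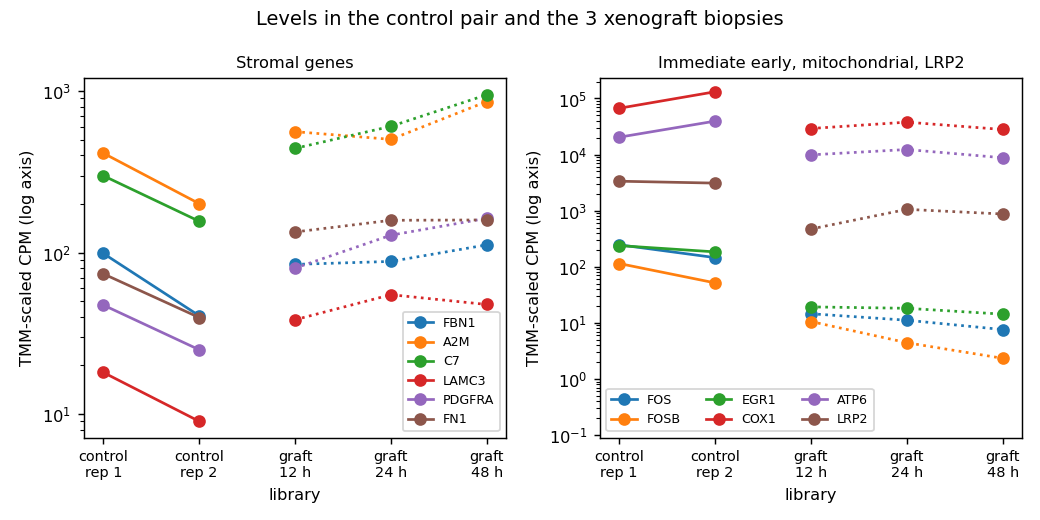
TMM-scaled CPM on a log axis in the 2 controls (joined by a solid line) and the 12, 24 and 48 h biopsies (dotted line), for 6 stromal genes on the left and for 3 immediate early genes, 2 mitochondrial genes and LRP2 on the right. FBN1 in the biopsies lies near replicate 1, at 84.5 to 111.6 CPM, while FOS, FOSB and EGR1 in the biopsies lie below both controls.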

How the data were processed

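The authors deposited raw counts per gene symbol in 2 tables, 1 for a pig genome (15235 symbols) and 1 for the human genome (59385 symbols). The submitters' processing notes name hg38. The aligner, counter, annotation and strand setting are not given in the sources used here. Left out were 16 rows of the pig table that pool RNA families (0.00187% and 0.00184% of counts in replicates 1 and 2) and sex-linked symbols of the human table. Of the 48 lists, the sex-linked one is not described further: no pig gene on its list of 9 passed the count limit.

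Pig counts of the control pair were scaled by TMM in edgeR 4.0.16 (R 4.3.3), with factors of 1.111 and 0.8999, after which effective sizes were 73252660 and 63987911. Genes with 50 or more counts in at least 1 library were kept. Values of all 5 libraries used TMM fitted on the 5. Folds and intervals were tested on simulated data that held counting error only. That test could not show how the intervals behave under the wider spread of the real pair. Alternatives were library totals, DESeq2 1.42.0 size factors, TMM on 5 libraries, nuclear genes only, thinning of the deeper library, other count limits and folds, and the human table. RefSeq spans (Sscrofa11.1) came from a gene table matched by symbol.

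The 48 lists held 782 symbols, of which 650 were in the table and 571 were kept. Members, lists and thresholds were chosen with earlier results of these data known. Named were the 20 genes with the highest mean CPM (11 of them mitochondrial), the 10 largest folds each way at 50 and at 1000 counts, and list members past 2-fold or highest in CPM. List members past 1.5-fold and list extremes were named after their values were seen, as were the gene families and the span comparison. Some list members are not reported here by name.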

Additional observations from a re-analysis of the deposited data

How the results depend on the processing

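No paired analysis was possible because the compared libraries are single replicates of 1 group. With 1 library a side, no replicate could be left out. Scaling by library totals alone moved the median log2 fold of all genes to 0.31, against 0.00 with TMM, and shifted every list by the same amount, so that lists slightly below equal (nuclear respiratory chain and ribosomal proteins among them) lay slightly above it while keeping their place relative to all genes. The 13 mitochondrial genes stayed lower in replicate 1. With nuclear genes only the median of all genes was 0.077 and every list moved up, so small negative list medians have no settled direction. DESeq2 size factors moved no count of genes past 2-fold by over 1.5 times. Thinning of the deeper library was applied to the folds of 63 single genes only, and all of these stayed within their counting intervals.

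Genes at least 2-fold higher in replicate 1 (31 in the main comparison) numbered 168 with library totals, 49 with nuclear genes only, 13 with 50 counts in both libraries, 128 with 10 counts in 1 library, 497 with 1 count in 1 library, 291 at 1.5-fold, 0 at 4-fold and 54 in the human table. Genes at least 2-fold lower (4) numbered 0, 2, 2, 58, 413, 68 and 0 under the same settings up to 4-fold. Over both tables together the 13 mitochondrial genes took 17.801% of counts in replicate 1 and 28.088% in replicate 2.

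With library totals the lists' members past 2-fold higher were 5 for fibroblast and matrix, 3 for immediate early, 3 for proliferation, 2 for mesangium, 2 for endothelial activation and 1 each for principal cell, glomerular endothelium, lymphatic, motile cilia and glycan, and no mitochondrially encoded gene (0) was past 2-fold lower. With nuclear genes only they were 2 for proliferation and 1 each for mesangium, matrix and glycan, and again 0 mitochondrial genes were past 2-fold lower. FOSB and CCL4 stayed past 2-fold higher with nuclear genes only, at log2 folds of 1.22 and 1.12. With 10 counts in 1 library there were 2 NF-kB and 1 B cell gene higher, and 1 mitochondrial ribosomal and 1 neutrophil gene lower. With 1 count in 1 library there were 3 skeletal muscle, 2 red cell, 2 immediate early, 2 NF-kB and 1 each of thick ascending limb, peritubular, macrophage, neutrophil and B cell genes higher, and 2 neutrophil and 1 each of principal cell, parietal, mitochondrial ribosomal and adrenal genes lower.

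Depth limits the rarer genes: with at least 50 and fewer than 200 counts, 1.65% of genes were past 2-fold, against 0.05% with at least 1000 and fewer than 10000.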

Other observations

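Gene families grouped by symbol give values outside the lists. Protocadherins, adhesion molecules best known from neurons, had 9 of 10 kept genes above equal with a median log2 fold of 0.46, and 4 were past 1.5-fold higher, against 2.58% of all genes. Relative to the same span deciles their median was 0.41. Solute carriers, the main transport family of the tubule, had 112 of 266 above equal with a median of -0.04, and 7 were past 1.5-fold higher and 1 lower, which is close to the background of 2.58% and 0.602%, from SLC12A5 at -0.62 to SLC5A8 at 0.92. Proteasome subunits had 26 of 32 below equal with a median of -0.09, or -0.036 relative to genes of the same span decile. Subunits of the V-type proton pump, which acidifies urine and lysosomes, had 11 of 17 below with a median of -0.10. Zinc finger genes of the ZNF series had 140 of 224 above with a median of 0.07. Of 12 small nucleolar RNAs 8 were below equal with a median of -0.15, and of 7 microRNA hairpins 5 were below with a median of -0.33. The hairpin ssc-mir-10390 had no span, so no length-based value is given for the hairpins. These families were chosen after their values were seen.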
